A study of Sus scrofa with 35 samples.

Results

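The genes of MHC class I presentation were examined in the whole blood of growing pigs. The members were the pig class I heavy chains (SLA-1, SLA-3 and every other gene whose name on the array began with SLA and a digit, namely SLA-5, SLA-6, SLA-7 and SLA-8), B2M, TAP1, TAP2, TAPBP, PSMB8, PSMB9 and PSMB10. They were chosen by gene name in the scanner files. This gave 13 genes with 52 of the 60305 distinct probes of the array, of which 50 were in the table of 39072 expressed probes that was tested. The name SLA-2 had 0 probes, and 1 probe each of PSMB8 (O5527) and SLA-6 (A_72_P260597) was not in that table. Those 2 probes were well above background on 2 and 1 of the 35 arrays. All 50 retained probes were well above background on all 35 arrays, with 0 flagged and 0 saturated spots.

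Blood RNA was measured on 1-colour arrays with 1 array per castrated male pig. The breeds were Creole (CR), Large White (LW) and their F1 cross, and each pig was sampled either in thermoneutral conditions (TN, labelled 24 °C) or under heat stress (HS, labelled 30 °C, with a slightly higher temperature in the protocol text). There were 5 CR pigs in TN conditions and 6 pigs in each of the other groups (CR HS, F1 TN, F1 HS, LW TN and LW HS). Slaughter of the TN pigs took place before the temperature was raised, so climate and day of slaughter cannot be told apart, and the labels hold no pen or parent. Per the methods of the study, the pigs of each breed came as a few sets of littermates. Because the litter of a pig is not labelled, every fit here treats littermates as independent. Per the same methods, pigs of a pen or a day of slaughter shared a climate, and the fits treat these pigs as independent too. The p-values of HS contrasts may therefore be too small. The study fitted pen, day of slaughter and parents as random effects. It called far fewer blood probes under HS than the 13601 of 39072 called here. Whole blood mixes white cells, platelets and immature red cells, so fewer cells of a type and less RNA per cell cannot be told apart. P-values measure the spread between pigs, each of which had 1 array, and precision is limited by how many arrays there were.

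MHC class I molecules show fragments of the proteins made inside a cell to CD8 T cells. The immunoproteasome, with the interferon-inducible subunits PSMB8, PSMB9 and PSMB10, cuts proteins into peptides, TAP1 and TAP2 form the pump that carries these peptides into the endoplasmic reticulum, and TAPBP (tapasin) holds empty class I molecules at that pump. A class I molecule consists of a heavy chain and the light chain B2M. In pigs SLA-1, SLA-2 and SLA-3 are the classical heavy chains, SLA-6, SLA-7 and SLA-8 are nonclassical, and SLA-5 is a class I gene related to the classical ones. In the pig annotation of assembly Sscrofa11.1, SLA-1, SLA-5, SLA-2, SLA-3 and SLA-4 followed one another on chromosome 7, SLA-8, SLA-7 and SLA-6 lay next to each other further on, and TAP2, PSMB8, TAP1 and PSMB9 were direct neighbours. TAPBP was on the same chromosome, PSMB10 on chromosome 6 and B2M, with 2 entries, on chromosome 1.

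All probes were 60 bases long, with 35% to 60% G and C. Class I genes are much alike and highly polymorphic, so the sequence of a probe decides which gene and which allele it can read, and a difference in transcript level cannot be told apart from a difference in the match of an allele to the probe. Probes of SLA-1 and SLA-3 could nearly coincide. The pair below overlaps by 59 bases with 4 mismatches, in capitals, and is shown because its values under HS and between breeds are compared further on.
SLA-1 A_72_P440391: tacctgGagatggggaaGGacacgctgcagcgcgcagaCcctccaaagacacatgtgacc
SLA-3 A_72_P440386: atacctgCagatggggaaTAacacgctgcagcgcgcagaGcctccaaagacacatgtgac

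Pairs within a gene also differed by few bases. A pair of SLA-1 probes overlaps by 43 bases with 2 mismatches, and a pair of SLA-3 probes by 57 bases with 2 mismatches. A stretch of 30 bases of each is given, with mismatches in capitals (1 of the 2 for SLA-3). They are shown because the values of the 2 probes of each pair are set side by side further on.
SLA-1 A_72_P035616: gggatAataaatgagagatttcctTagttt
SLA-1 A_72_P124686: gggatGataaatgagagatttcctAagttt
SLA-3 A_72_P515992: ggtttagaaatagggaaaggggcttacccA
SLA-3 A_72_P609764: ggtttagaaatagggaaaggggcttacccG

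A last set holds probes whose contrasts are described below, whether or not they passed, printed without capitals. For SLA-3 A_72_P625308, 30 of the 42 bases shared with SLA-3 A_72_P682906 are given. For TAP2 and SLA-5 the pair of probes shown did not overlap.
SLA-3 A_72_P625308: gttcattgccctgactggtgactgcgggga
SLA-3 A_72_P517623: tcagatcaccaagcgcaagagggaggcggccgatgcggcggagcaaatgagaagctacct
SLA-3 A_72_P683231: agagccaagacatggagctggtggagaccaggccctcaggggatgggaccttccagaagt
TAP2 A_72_P013781: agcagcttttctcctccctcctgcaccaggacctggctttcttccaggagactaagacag
TAP2 A_72_P275849: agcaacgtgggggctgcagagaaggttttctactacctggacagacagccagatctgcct
SLA-5 A_72_P414498: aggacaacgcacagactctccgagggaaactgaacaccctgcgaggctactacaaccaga
SLA-5 A_72_P441848: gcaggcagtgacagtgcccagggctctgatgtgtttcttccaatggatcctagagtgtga

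In all, 11 pairs of member probes overlapped by at least 30 bases and are not independent measurements. Of the 50 probes, 35 lay above the 90th percentile of mean intensity in the table. The median within-group SD was 0.39 (log2) over the 50 member probes against 0.27 over all 39072. No comparison with probes of equal intensity was made, and several member probes read the same gene.

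The arrays of F1 TN pigs had the lowest mean intensity. Their 75th percentile of processed intensity was 149.9 ± 28.3 (SD, n = 6), against group means of 202 to 238 elsewhere. Single arrays overlapped, with 112.0 to 185.9 in F1 TN pigs and 144.7 to 328.8 in the other groups. The mean log2 value of a list of red cell genes (12 genes listed, 10 in the table with 18 probes, 17 of them above background on all arrays) was 10.78 to 12.42 in F1 TN pigs and 9.43 to 11.01 in F1 HS pigs. It was 10.28 to 11.65 in CR TN, 9.88 to 11.42 in CR HS, 11.03 to 11.73 in LW TN and 10.51 to 11.38 in LW HS pigs. Under HS, 9 of the 18 red cell probes fell and 1 rose (limma, adjusted p under 0.05), and 7 of 15 T cell probes and 2 of 5 B cell probes rose with 0 falling. Over all probes, 20.1% were higher and 14.7% lower in HS. Of the other white cell probes, 2 of 8 cytotoxic and 1 of 8 neutrophil probes fell and 1 of 15 monocyte probes rose. Of 23 probes of interferon-stimulated genes 4 fell and 1 rose, and 0 of 4 platelet probes passed. Without F1 pigs 0 of all probes passed under HS, and so 0 of these marker probes. Results under HS are therefore given with and without F1 pigs and with the red cell list as a covariate.

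The main question of the design was what HS changed. Among the 50 member probes, 14 rose and 1 fell in HS pigs (limma, adjusted p under the threshold of 0.05), which is 30% of them, against 34.8% of all 39072 probes (20.1% higher and 14.7% lower in HS). The probes that rose belonged to PSMB10 (4 of 4 probes), PSMB9 (1 of 2), TAP1 (1 of 3), SLA-1 (5 of 7), SLA-3 (2 of 8) and SLA-5 (1 of 2), and the probe that fell to TAP2 (1 of 5). For B2M (9 probes), PSMB8 (3), TAPBP (1), SLA-6 (1), SLA-7 (1) and SLA-8 (4), 0 probes passed. The difference was positive for 43 of the 50 probes, with a median of 0.20 (log2) over the members and 0.06 over all probes. The share of called members was thus near that of the table.

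**Figure D1:**
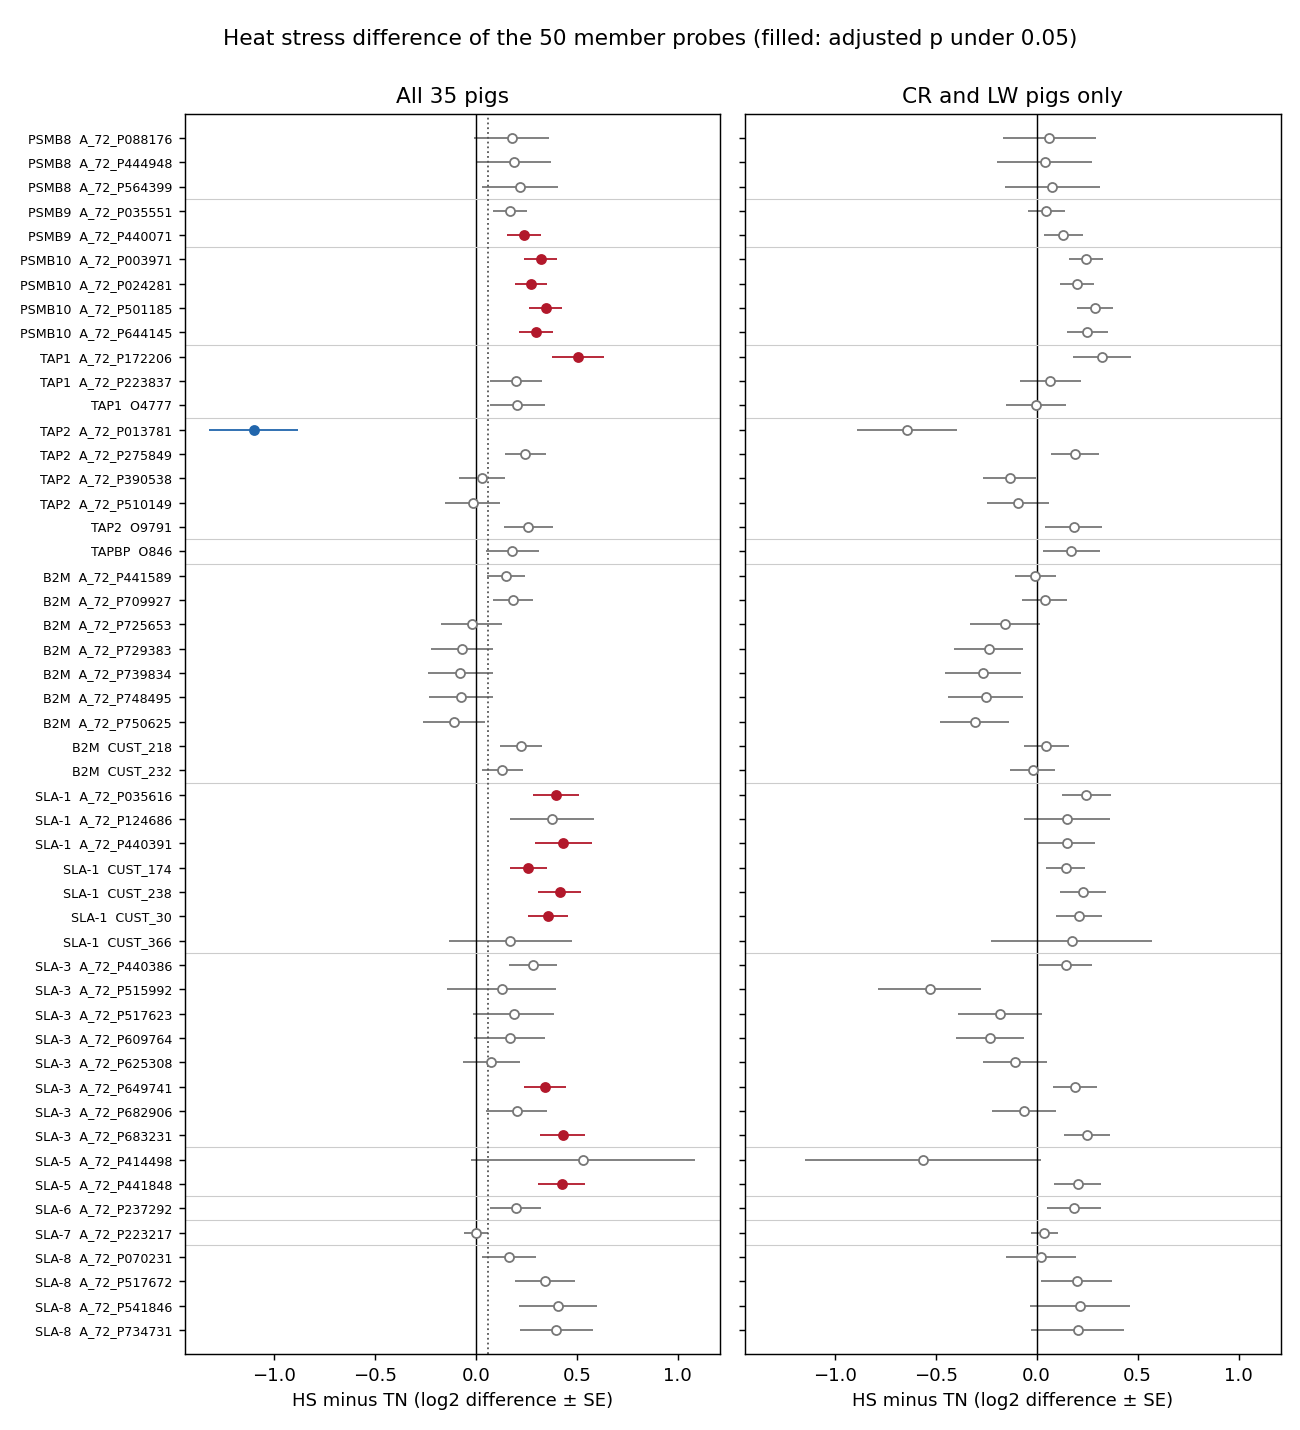
Difference between HS and TN (log2) of every member probe, grouped by gene, with all 35 pigs in the left panel and CR and LW pigs alone in the right one. Bars are the SE, filled symbols mark an adjusted p under 0.05 (red higher, blue lower in HS), and the dotted line is the median of all probes. The TAP2 probe A_72_P013781 lies alone at -1.10 on the left, the 4 PSMB10 probes sit between 0.27 and 0.35, and 15 filled symbols on the left stand against 0 on the right.

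Of the immunoproteasome subunits, PSMB10 rose under HS in 4 of 4 probes, PSMB9 in 1 of 2 and PSMB8 in 0 of 3. PSMB10, which carries the trypsin-like site of the immunoproteasome, rose by 0.27 to 0.35 (log2) in its 4 probes (adjusted p of 0.0027 to 0.0093 by limma). For its brightest probe, A_72_P644145, CR TN pigs had log2 values of 12.60, 12.99, 13.07, 13.14 and 13.30, and CR HS pigs a lowest, median and highest value of 12.66, 13.30 and 13.64. F1 pigs had 12.34, 13.06 and 13.26 in TN and 13.14, 13.37 and 13.48 in HS, and LW pigs 12.87, 13.24 and 13.41 in TN and 13.31, 13.44 and 13.66 in HS. The HS and TN values overlapped in each breed, yet 16 of 18 HS pigs lay above the TN mean of their breed, and 17 of 18 for each of the other 3 probes. The difference of this probe was 0.30 ± 0.09 (SE, adjusted p = 0.0081). The 4 probes were correlated at 0.76 to 0.96 across pigs after group means were removed, and a pair of them shares 50 bases.

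PSMB9, which takes the place of the constitutive subunit PSMB6, gave 0.24 ± 0.08 (SE, adjusted p = 0.028 by limma) with A_72_P440071 and 0.17 ± 0.08 (adjusted p = 0.11) with A_72_P035551. In CR TN pigs A_72_P440071 had 12.81, 13.19, 13.33, 13.57 and 13.88, and in CR HS pigs 13.15, 13.59 and 13.64 (lowest, median, highest). F1 pigs had 12.45, 13.19 and 13.27 in TN and 13.29, 13.47 and 13.81 in HS, so that these F1 groups did not overlap. LW pigs had 13.09, 13.30 and 13.66 in TN and 13.29, 13.44 and 13.60 in HS, where HS values lay inside the range of TN values. The call was lost without CR TN replicate 4 or without F1 HS replicate 5 (highest adjusted p = 0.055 by limma).

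PSMB8, the chymotrypsin-like subunit, did not pass in any of its 3 probes (0.18 to 0.22, adjusted p of 0.37 to 0.46 by limma). Its values differed far more between pigs than those of PSMB9. With A_72_P088176, CR TN pigs had 11.15, 11.16, 12.27, 12.41 and 12.47, and CR HS pigs 11.03, 11.89 and 12.57 (lowest, median, highest). The values were 11.34, 12.02 and 12.46 in F1 TN, 11.34, 12.32 and 13.25 in F1 HS, 10.65, 11.26 and 12.15 in LW TN and 11.03, 11.47 and 12.20 in LW HS pigs. The CR TN pigs thus fell into 2 low and 3 high values, and all groups overlapped. The 3 probes were correlated at 0.986 to 0.992 with one another, so the spread between pigs was shared by them.

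Of the probes for the peptide transporter, 1 of 3 for TAP1 rose and 1 of 5 for TAP2 fell. TAP1 A_72_P172206 rose by 0.51 ± 0.13 (log2, SE, adjusted p = 0.0038 by limma), a 1.42-fold change. CR TN pigs had 6.71, 7.32, 7.52, 7.67 and 7.97 and CR HS pigs 7.63, 7.79 and 8.23 (lowest, median, highest). F1 pigs had 6.62, 7.20 and 7.78 in TN and 7.77, 7.94 and 8.35 in HS, and LW pigs 7.12, 7.28 and 8.15 in TN and 7.02, 7.81 and 7.92 in HS. In F1 pigs the groups met at the edge, and 17 of 18 HS pigs over all breeds lay above the TN mean of their breed. The other TAP1 probes had the same sign without passing, with 0.20 ± 0.13 (adjusted p = 0.22) for A_72_P223837 and 0.21 ± 0.14 (adjusted p = 0.23) for O4777, the brightest. O4777 had 13.04, 13.08, 13.55, 13.68 and 14.34 in CR TN pigs, 13.54 to 14.01 in CR HS, 12.53 to 13.77 in F1 TN, 13.15 to 14.38 in F1 HS, 12.93 to 14.19 in LW TN and 12.99 to 13.65 in LW HS pigs. For O4777 the HS mean was higher in CR and F1 pigs and lower in LW pigs.

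TAP2 A_72_P013781 fell, with a difference of -1.10 ± 0.22 (log2, SE, adjusted p = 0.0016 by limma), a 2.14-fold change and the largest among the members. Its values were 11.13, 11.50, 11.94, 12.18 and 12.57 in CR TN pigs. CR HS pigs had 9.98, 11.08 and 12.43 (lowest, median, highest). F1 TN pigs had 12.29, 12.61 and 13.09 against 9.79, 11.01 and 11.29 for F1 HS pigs, and LW TN pigs had 11.40, 12.17 and 12.83 against 11.33, 11.55 and 11.80 for LW HS pigs. The F1 groups did not overlap, and 2 of 18 HS pigs, both CR, lay above the TN mean of their breed. The difference was negative on each of the 4 slides that held both climates within a breed, from -1.35 to -0.49. No other TAP2 probe behaved in this way. Their differences were 0.25 ± 0.10 for A_72_P275849, 0.03 ± 0.12 for A_72_P390538, -0.02 ± 0.14 for A_72_P510149 and 0.26 ± 0.12 for O9791 (SE, adjusted p of 0.061 to 0.94 by limma). A_72_P013781 was correlated at -0.41 to -0.30 with these 4 probes across pigs (group means removed), whereas the 4 were correlated at 0.28 to 0.79 with one another. The probes therefore give no single direction for TAP2.

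**Figure D2:**
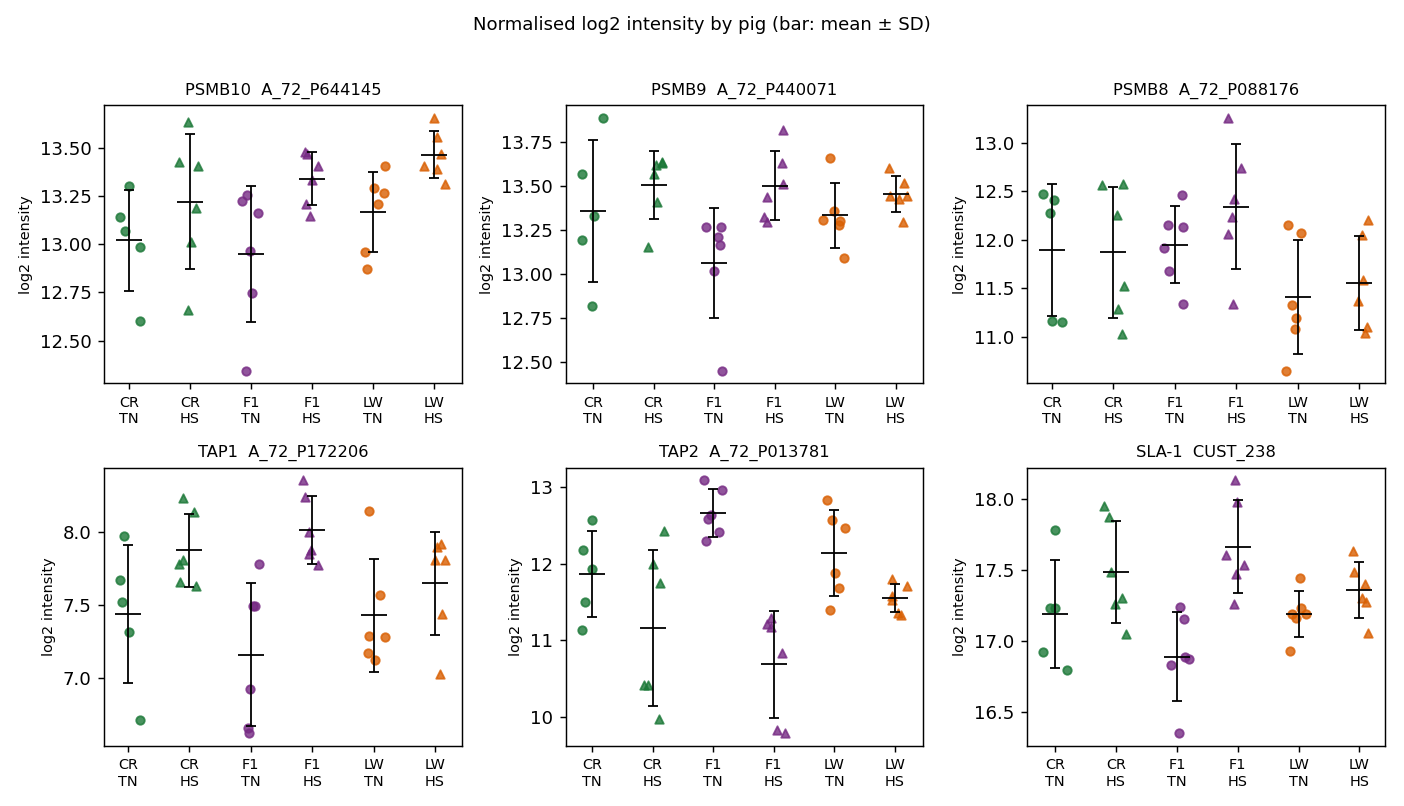
Log2 value of each pig for 6 member probes by breed and climate, circles for TN and triangles for HS, with bars for the mean ± SD (n = 5 in CR TN, n = 6 in the other groups). The TAP2 probe A_72_P013781 is lower in F1 HS pigs (up to 11.29) than in all F1 TN pigs (from 12.29), and PSMB8 shows the wide spread within groups.

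TAPBP (O846), the loading factor, had 8.08, 8.46, 8.46, 8.64 and 8.94 in CR TN pigs and ranged from 7.62 to 9.09 over all pigs. Its difference under HS was 0.18 ± 0.13 (log2, SE, adjusted p = 0.27 by limma). For B2M, the light chain, the difference ranged from -0.11 to 0.22 over 9 probes, and 0 passed (smallest adjusted p = 0.091). The brightest, CUST_232_PI427286967, had 15.63, 15.67, 15.93, 16.00 and 16.65 in CR TN pigs, 15.76 to 16.44 in CR HS, 15.39 to 16.01 in F1 TN, 15.54 to 16.74 in F1 HS, 15.65 to 16.31 in LW TN and 15.59 to 15.97 in LW HS pigs. All of these groups overlapped. The B2M probes fell into 5 with a negative difference (-0.11 to -0.02) and 4 with a positive one (0.13 to 0.22). The 5 were drawn from other sequence records than the 4. Whether both sets read the same transcript was not tested.

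Among the classical heavy chains, SLA-1 rose in 5 of 7 probes by 0.26 to 0.43 (log2, adjusted p of 0.0043 to 0.029 by limma). The brightest, CUST_238_PI427286967, rose by 0.42 ± 0.11 (SE, adjusted p = 0.0043), with 16.79, 16.92, 17.23, 17.23 and 17.78 in CR TN pigs and 17.05, 17.39 and 17.95 (lowest, median, highest) in CR HS pigs. F1 pigs had 16.35, 16.88 and 17.24 in TN and 17.26, 17.57 and 18.13 in HS without overlap, and LW pigs 16.93, 17.19 and 17.44 in TN and 17.06, 17.35 and 17.63 in HS with overlap. The value exceeded the TN mean of the same breed in 16 of 18 HS pigs. CUST_30_PI427286967, which shares 58 bases with 1 mismatch, rose by 0.36 ± 0.10, A_72_P035616 by 0.40 ± 0.11, A_72_P440391 by 0.43 ± 0.14 and CUST_174_PI427286967 by 0.26 ± 0.09 (SE). The last lost its call without CR TN replicate 4, F1 HS replicate 5 or F1 TN replicate 4. CUST_366_PI427286967 (0.17 ± 0.31) and A_72_P124686 (0.38 ± 0.21) did not pass.

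SLA-3 rose in 2 of 8 probes, A_72_P683231 by 0.43 ± 0.11 (log2, SE, adjusted p = 0.0047 by limma) and A_72_P649741 by 0.34 ± 0.10 (adjusted p = 0.012). A_72_P683231 had 13.85 to 14.96 in CR TN, 14.27 to 14.78 in CR HS, 13.47 to 14.47 in F1 TN, 14.30 to 15.31 in F1 HS, 13.89 to 14.49 in LW TN and 14.02 to 14.67 in LW HS pigs, and 17 of 18 HS pigs were above the TN mean of their breed. A_72_P649741, the brightest of the gene, had 15.30, 15.30, 15.32, 15.42 and 16.41 in CR TN pigs, 15.46 to 16.05 in CR HS, 14.92 to 15.83 in F1 TN, 15.45 to 16.37 in F1 HS, 15.52 to 15.88 in LW TN and 15.55 to 16.00 in LW HS pigs. CR TN replicate 1 had the highest CR TN value of both probes. The other 6 SLA-3 probes ranged from 0.08 to 0.29 and did not pass. Of the nearly identical pair printed above, SLA-1 A_72_P440391 passed (0.43) and SLA-3 A_72_P440386 did not (0.29 ± 0.12, adjusted p = 0.059), and the difference between the probes was not tested.

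SLA-5 A_72_P441848 rose by 0.43 ± 0.12 (log2, SE, adjusted p = 0.0061 by limma). Its values were 13.82, 14.09, 14.09, 14.29 and 15.00 in CR TN pigs, 14.06 to 14.81 in CR HS, 13.24 to 14.53 in F1 TN, 14.49 to 15.27 in F1 HS, 14.11 to 14.46 in LW TN and 14.17 to 14.71 in LW HS pigs. It exceeded the TN mean of the same breed in 15 of 18 HS pigs. The second SLA-5 probe, A_72_P414498, singled out after its values were seen, had 0.53 ± 0.55 (adjusted p = 0.46). It varied between 5.80 and 11.97 over the pigs, and its within-group SD of 1.59 exceeded that of 99.9% of all probes. Of the nonclassical chains, SLA-6 A_72_P237292 (0.20 ± 0.13), SLA-7 A_72_P223217 (0.0014 ± 0.06) and the 4 SLA-8 probes (0.17 to 0.41, adjusted p of 0.070 to 0.33) did not pass. SLA-7 had 5.72, 5.75, 5.82, 5.90 and 6.08 in CR TN pigs and 5.59 to 6.35 in the other groups. Its mean of 5.84 lay at percentile 20.5 of all probes. An array probe for the opposite strand of PSMB9 A_72_P035551 also had a mean of 5.84. At this level a lack of change cannot be read from SLA-7, and the lowest values of SLA-5 A_72_P414498 lay there too.

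The calls under HS were made with F1 pigs in the fit, and HS was also tested within each breed. In F1 pigs alone, 28 of the 50 probes passed (27 higher and 1 lower in HS, limma), against 38.7% of all probes (20.8% higher and 17.9% lower), with a median of 0.46 over the members and 0.13 over all probes. These included 4 of 9 B2M probes (0.42 to 0.56), both PSMB9 probes, TAP1 O4777 (0.61 ± 0.22, SE, adjusted p = 0.027), 7 of 8 SLA-3 probes, both SLA-5 probes and 1 of 4 SLA-8 probes. TAP2 A_72_P013781 fell by 1.97 ± 0.34 (adjusted p = 0.00021). In CR and in LW pigs limma called 0 member probes (0% of all probes, 2 members each and 3466 and 3404 probes in all at an unadjusted p under 0.05), with member medians of 0.20 and 0.08. HS and TN values did not overlap for 3 member probes in F1 pigs (11.7% of all probes) and for 0 in CR (0.461% of all probes) and LW pigs (0.781%).

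The interaction of breed and climate, which tests this difference directly, gave 0 of 50 member probes and 0 of 39072 probes in all (limma F-test, smallest adjusted p = 0.28). At an unadjusted p under 0.05 there were 13 and 5807 probes. Without F1 pigs, 0 member probes and 0 of all probes passed for HS (6845 of all unadjusted). The estimates then were -0.64 ± 0.25 for TAP2 A_72_P013781 (SE, adjusted p = 0.23), 0.32 ± 0.14 for TAP1 A_72_P172206 (adjusted p = 0.26), 0.23 ± 0.11 for SLA-1 CUST_238_PI427286967 (adjusted p = 0.30) and 0.25 ± 0.10 for PSMB10 A_72_P644145 (adjusted p = 0.24). With the red cell list as a covariate in the fit of all pigs, 0 member probes passed (0.00256% of all probes). There TAP2 A_72_P013781 had -0.63 ± 0.21 (adjusted p = 0.19), TAP1 A_72_P172206 0.21 ± 0.12 (adjusted p = 0.35), SLA-1 CUST_238_PI427286967 0.10 ± 0.07 (adjusted p = 0.51) and PSMB10 A_72_P644145 0.11 ± 0.08 (adjusted p = 0.49).

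SLA-3 A_72_P515992, singled out after its values were seen, ranked first among the members for the interaction (adjusted p = 0.28 by limma). It had 13.93, 15.14, 15.19, 15.66 and 16.09 in CR TN pigs and 13.45, 14.11 and 15.75 (lowest, median, highest) in CR HS pigs. F1 pigs had 13.77, 14.78 and 16.23 in TN and 15.52, 16.42 and 17.16 in HS, and LW pigs 14.81, 15.57 and 15.79 in TN and 14.65, 15.24 and 15.78 in HS. The HS difference was thus -0.95 in CR, 1.39 in F1 and -0.15 in LW pigs, and within HS pigs F1 exceeded CR by 2.12 ± 0.38 (SE, adjusted p = 0.0096 by limma). That contrast uses part of the values that singled out the probe, so its p-value is no separate support. In it 4 of 50 member probes passed (8%), all of SLA-3, against 22 of 39072 probes in all. This contrast was not planned and was read for a probe picked by its values. The count is therefore no separate support either, and some SLA-3 probes overlap. In TN pigs F1 minus CR gave 0 member probes. A_72_P609764, which overlaps A_72_P515992, had -0.49 in CR, 0.93 in F1 and 0.00 in LW pigs.

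Other genes of the pathway were read from a list of 22 genes, of which 20 had a probe, 49 probes in all. Under HS, 15 of these probes rose and 4 fell by limma, with a median of 0.15 (log2), against 20.1% of all probes higher and 14.7% lower, so that the share called was near that of the table. On this list 0 passed without F1 pigs or with the red cell covariate. The 6 with the smallest p-values were NLRC5 A_72_P527747 (-0.54 ± 0.11, SE, adjusted p = 0.0016), PSMB6 A_72_P621004, PDIA3 A_72_P127691, RFXANK O9366, PSME1 O9406 and PSME1 A_72_P680482. NLRC5 is the transactivator of class I genes. Its probe A_72_P527747 ranged over 7.09 to 7.61 in CR TN, 6.67 to 7.75 in CR HS, 7.73 to 8.36 in F1 TN, 6.63 to 7.32 in F1 HS, 7.31 to 8.12 in LW TN and 7.03 to 7.41 in LW HS pigs, without overlap in F1 pigs. The other NLRC5 probe, O8413, had the opposite sign (0.22 ± 0.12, adjusted p = 0.17), so the probes give no single direction for NLRC5.

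RFXANK, a part of the complex that binds MHC promoters, fell by 0.59 (log2) in its probe O9366, from 10.96 to 11.37 in F1 TN pigs to 9.38 to 10.35 in F1 HS pigs. PSMB6, that constitutive subunit, rose by 0.29 with A_72_P621004. PSME1, a subunit of the proteasome activator, rose by 0.39 with O9406 and 0.33 with A_72_P680482. PDIA3, a chaperone of the loading complex, rose by 0.36 with A_72_P127691. The PSMB6, PSME1 and PDIA3 probes named here thus had the sign of PSMB10, PSMB9 and SLA-1. RFXANK O9366 and NLRC5 A_72_P527747 had that of TAP2 A_72_P013781, but TAP2 and NLRC5 also had probes of the opposite sign.

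The design also compared breeds. Between CR and LW pigs, 2 of the 50 member probes passed (4%), against 1.08% of all probes (0.571% higher and 0.507% lower in CR), and both were SLA-3 probes lower in CR. Class I alleles are inherited within families, and differences between breeds cannot be told apart from differences between the few litters of each, so the p-values of breed contrasts may be too small. A_72_P625308 was lower in CR pigs by 1.37 ± 0.17 (log2, SE, adjusted p = 7.8e-06 by limma), a 2.58-fold difference. CR TN pigs had 12.50, 13.00, 13.02, 13.41 and 13.96 and CR HS pigs 12.36, 12.58 and 13.72 (lowest, median, highest). LW pigs had 13.93, 14.27 and 14.49 in TN and 14.18, 14.44 and 14.70 in HS, and F1 pigs 12.87, 13.68 and 14.23 in TN and 13.40, 14.09 and 14.64 in HS. Of the 11 CR pigs, 10 lay below the lowest LW pig, and F1 pigs spanned the gap. The difference was negative on each of the 5 slides (-1.98 to -0.49) and was -1.36 ± 0.16 without F1 pigs (adjusted p = 1.7e-05).

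F1 pigs exceeded CR pigs at this probe by 0.91 ± 0.17 (log2, SE, adjusted p = 0.0091 by limma), the single member probe past the threshold in that contrast (2%, against 0.184% of all probes). They were lower than LW pigs by 0.46 without passing (SE 0.17, adjusted p = 0.85). Within climates, CR minus LW was -1.07 ± 0.24 in TN (adjusted p = 0.072) and -1.62 ± 0.23 in HS pigs (adjusted p = 0.00021). The probe A_72_P682906, which shares 42 bases with it, had -0.69 ± 0.19 between CR and LW pigs (adjusted p = 0.061) and passed without F1 pigs (-0.68 ± 0.16, adjusted p = 0.029).

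The second SLA-3 probe, A_72_P517623, was lower in CR than in LW pigs by 0.95 ± 0.25 (log2, SE, adjusted p = 0.045 by limma). CR TN pigs had 10.28, 10.50, 10.64, 10.93 and 11.22 and CR HS pigs 9.23, 10.25 and 11.01 (lowest, median, highest). LW pigs had 10.94, 11.16 and 11.79 in TN and 10.86, 11.49 and 11.81 in HS, so CR and LW values overlapped, although 11 of 11 CR pigs lay below the LW mean of their climate. F1 pigs had 9.59, 10.86 and 11.65 in TN and 10.82, 11.93 and 12.24 in HS. The call was lost in 19 of the 35 fits that left out 1 pig, over CR, F1 and LW pigs (adjusted p of 0.020 to 0.11), and held without F1 pigs (-0.94 ± 0.21, adjusted p = 0.020).

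SLA-3 probes did not move as 1 unit between breeds. CR minus LW ranged from -1.37 to 0.04 over the 8 probes, and A_72_P683231 and A_72_P649741, which rose under HS, had 0.04 and -0.09. SLA-1 A_72_P440391 and its near twin SLA-3 A_72_P440386 had 0.21 and -0.33, neither past the threshold. With the red cell list as a covariate, 9 member probes passed (against 2.93% of all probes in that fit), all lower in CR, among them 5 of SLA-3, 2 of SLA-8 and 2 of PSMB10. SLA-8 A_72_P070231 had -0.48 ± 0.17 in the fit without that covariate (SE, adjusted p = 0.20 by limma). Its values were 11.55, 11.68, 11.94, 12.71 and 13.22 in CR TN pigs and 11.52 to 12.96 in CR HS pigs, against 12.56 to 12.81 over all 12 LW pigs.

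**Figure D3:**
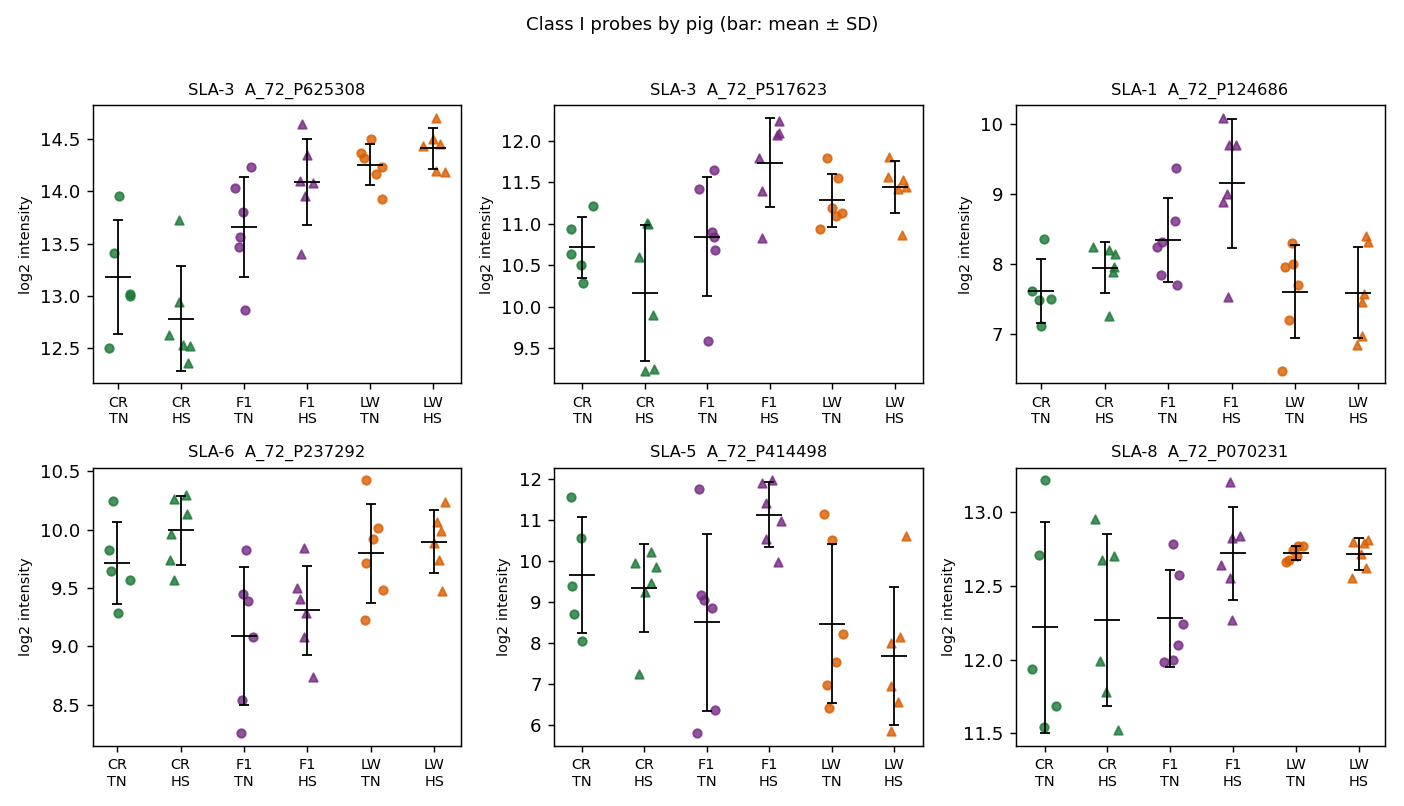
Log2 value of each pig for 6 class I heavy chain probes by breed and climate, circles for TN and triangles for HS, with bars for the mean ± SD (n = 5 in CR TN, n = 6 in the other groups). At SLA-3 A_72_P625308, 10 of 11 CR pigs lie below the lowest LW pig (13.93), and SLA-5 A_72_P414498 runs from 5.80 to 11.97.

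Between F1 and LW pigs 0 member probes passed by limma (7 at an unadjusted p under 0.05), against 0.0256% of all probes. Against the mid-parent value, the mean of CR and LW pigs, 2 member probes passed (4%, against 0.0717% of all probes), 1 in each direction. SLA-1 A_72_P124686 was higher in F1 pigs by 1.06 ± 0.22 (log2, SE, adjusted p = 0.040 by limma). Which gene this probe reads is not certain, because it shares at least 30 bases with a probe named LOC100514058. Its mean over all pigs was 8.06, against 14.26 to 17.30 for the other SLA-1 probes. Its values were 7.11, 7.49, 7.51, 7.62 and 8.36 in CR TN pigs, 7.27 to 8.25 in CR HS, 6.48 to 8.30 in LW TN and 6.85 to 8.40 in LW HS pigs, against 7.71 to 9.37 in F1 TN and 7.54 to 10.09 in F1 HS pigs. In 11 of 12 F1 pigs it was above the mid-parent value, and 7 of 12 were above every CR pig and above every LW pig. The overlapping SLA-1 probe A_72_P035616, with 2 mismatches in 43 bases, had -0.06 in the same contrast and was correlated at 0.34 with it across pigs.

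SLA-6 A_72_P237292 was lower in F1 pigs than the mid-parent value by 0.65 ± 0.13 (log2, SE, adjusted p = 0.040 by limma). CR TN pigs had 9.29, 9.57, 9.65, 9.82 and 10.24 and CR HS pigs 9.57 to 10.29, LW pigs 9.23 to 10.43 in TN and 9.47 to 10.24 in HS, and F1 pigs 8.25 to 9.83 in TN and 8.73 to 9.84 in HS. All 12 F1 pigs were below the mid-parent value, yet the breeds overlapped. Leaving out 1 pig at a time, the SLA-1 call was lost in 23 of 35 fits (adjusted p of 0.0076 to 0.12) and the SLA-6 call in 22 of 35 (0.012 to 0.11), with pigs of all 6 groups among those left out. PSMB8 in F1 pigs exceeded LW pigs by 0.66 to 0.70 without passing (adjusted p of 0.62 to 0.71).

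**Figure D4:**
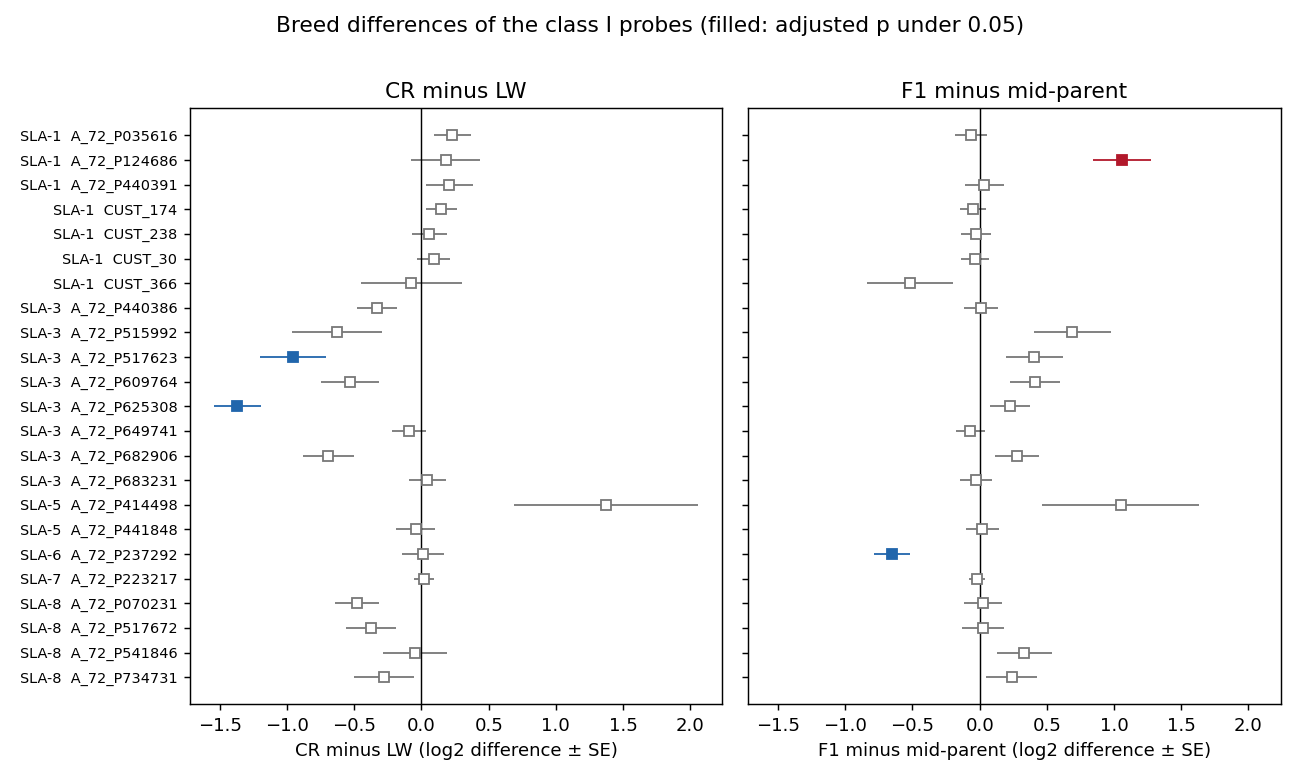
Difference between CR and LW pigs and between F1 pigs and the mid-parent value (log2) for the class I heavy chain probes, grouped by gene, with bars for the SE and filled symbols for an adjusted p under 0.05. The SLA-3 probes spread from -1.37 to 0.04 in the first contrast, and SLA-1 A_72_P124686 (1.06) and SLA-6 A_72_P237292 (-0.65) are the filled symbols of the second.

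On the list of other pathway genes, 0 of 49 probes passed between CR and LW pigs by limma (3 at an unadjusted p under 0.05), with a median of -0.01 (log2). Those 3 were CALR O12127 (0.30 ± 0.10, SE), ERAP1 O7643 (-0.26 ± 0.13) and LNPEP A_72_P165016 (-0.24 ± 0.12), with adjusted p of 0.19 to 0.49. In the other breed contrasts 0 of the 49 passed, with 0 at an unadjusted p under 0.05.

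Relations between members were measured across the 35 pigs on deviations from the group means, for 10 pairs of genes with the brightest probe of each gene. The light chain followed the transporter most closely, B2M with TAP1 (r = 0.86, rho = 0.72, permutation p = 1e-05, the smallest the permutations can give, adjusted p = 5e-05). TAP1 was also related to NLRC5 probe O8413 (r = 0.76, rho = 0.71, adjusted permutation p = 1e-04), to PSMB9 (r = 0.75, rho = 0.73, adjusted permutation p = 5e-05) and to IRF1 (r = 0.64, rho = 0.51, adjusted permutation p = 4e-04). PSMB10 was related to PSMB9 (r = 0.64, rho = 0.58, adjusted permutation p = 0.00095), although r was -0.18 within LW pigs, against 0.72 in CR and 0.85 in F1 pigs. IRF1 is a transcription factor of the interferon response.

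PSMB8 stood outside these relations. With TAP1 its r was 0.09 (rho = 0.01, adjusted permutation p = 0.73), with 0.33 in CR, 0.36 in F1 and -0.55 in LW pigs, although the genes are neighbours in the annotation. With PSMB9 r was 0.27 (rho = 0.24, adjusted permutation p = 0.19), and with PSMB5, the constitutive subunit it replaces, r was 0.04 (rho = 0.02, adjusted permutation p = 0.82). TAPBP and TAP1 gave r = 0.30 (adjusted permutation p = 0.18) and rho = 0.40 (adjusted permutation p = 0.049). Without the 2 pigs farthest from the median of the first gene, the 5 relations given above as past the threshold had r of 0.55 to 0.80, and with slide means removed 0.67 to 0.86. B2M with TAP1 held within each breed, with 0.85 in CR, 0.93 in F1 and 0.75 in LW pigs. The genes of a pig share its array and its mix of cells, and the part of that mix was not tested.

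**Figure D5:**
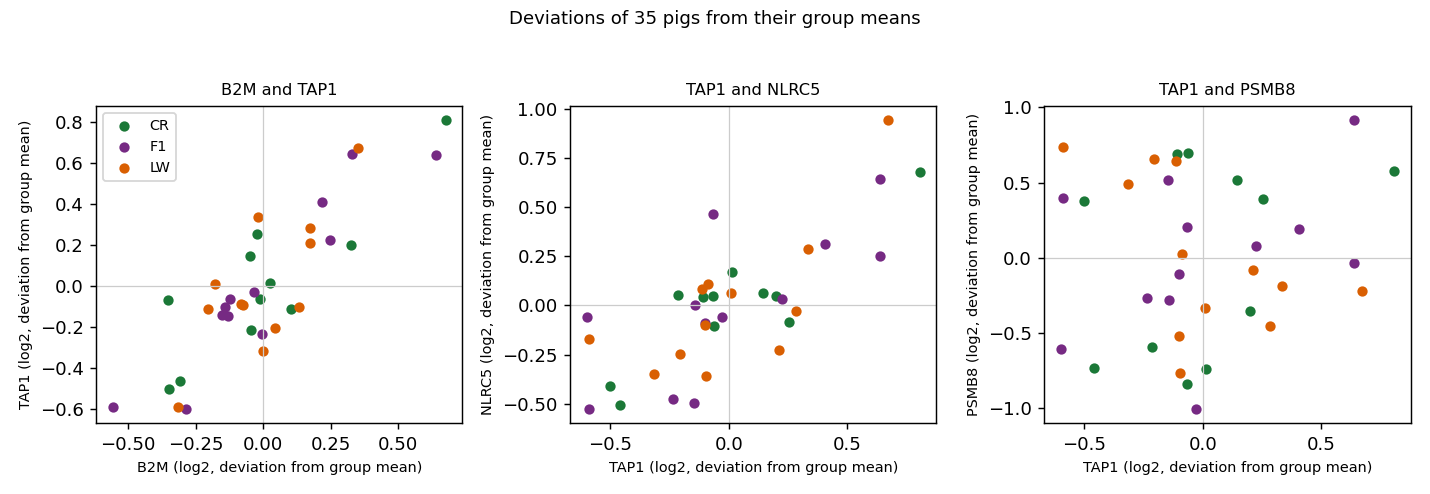
Deviation of each pig from its group mean (log2) for B2M against TAP1, TAP1 against NLRC5 and TAP1 against PSMB8, with 1 point per pig and 35 pigs. Points lie along a line for B2M and TAP1 (r = 0.86) and scatter for TAP1 and PSMB8 (r = 0.09).

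For 4 members the other genes with the most similar pattern were sought by the correlation of deviations over 35 pigs, given as a description. For TAP1 O4777 these were B2M (0.90), STK17A (0.87), B2MB (0.84), TPST2 (0.84) and ARHGAP30 (0.84), where the median over all probes was 0.07 and the 99th percentile 0.67. For B2M they were B2MB (0.98), whose probe shares at least 30 bases with B2M, CDC42SE1 (0.88), N4BP1 (0.87), TAP1 (0.86) and CD53 (0.85). For SLA-1 CUST_238_PI427286967 they were IL16 (0.87), NR3C1 (0.85), LY6E (0.84), CDC42SE1 (0.84) and PHF12 (0.83), and for PSMB9 INPP1 (0.85), CD97 (0.83), UBE2Q1 (0.82), TNIP1 (0.81) and LRP10 (0.81). Each array supplies all of these genes, so shared array effects enter every value.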

How the data were processed

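Whole blood RNA of 35 pigs in 6 groups was hybridised to 1-colour Agilent arrays, grouped by the breed and temperature labels. Per the file headers, Feature Extraction 10.10.1.1 gave the raw median and processed spot intensity, the latter with background subtracted. The authors deposited log2 values of 39072 expressed probes, which they obtained by quantile normalization of the median intensities, where the rule of the filter is not given in the sources used here. Values recomputed here from the scanner files had a correlation of 0.99997 with them (median difference 0.023). Columns of other samples numbered 0.

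The deposited log2 values were fitted with limma 3.58.1 (lmFit, eBayes) in R 4.3.3, two-sided, with Benjamini-Hochberg adjustment over all 39072 probes and a threshold of 0.05. HS minus TN and breed contrasts were estimated with breed and climate as additive terms, and effects within a breed and the interaction from 6 group means. Pen, slaughter day and parents, random effects of the study, are not in the labels. The fit was tested on simulated data. The brightest probe of each gene and every probe past the threshold in an additive contrast are named. Members and gene lists were chosen with earlier results of these data known. Relations used 100000 permutations within groups. P-values were adjusted over 10 relations, 1 of which is not reported here. Alternatives were other background correction, scaling or filters, slide as a block, array weights, a red cell covariate, fits without F1 pigs and fits leaving out each pig.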

Additional observations from a re-analysis of the deposited data

Results flagged for a closer look

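Each named probe was examined in each of the 6 groups, 150 combinations in all. In 8 of them the gap between 1 pig and the rest of its group exceeded the 95% limit of Dixon's test. Chance gives this in about 1 in 20 combinations. They are not independent, because the probes share pigs and some overlap. CR TN replicate 1 was the highest of its group for SLA-1 A_72_P440391 (15.12, next value 14.12), SLA-3 A_72_P649741 (16.41, next 15.42) and SLA-3 A_72_P683231 (14.96, next 14.15). The lowest pigs were CR TN replicate 4 for PSMB10 A_72_P024281 (11.67, next 12.13), F1 TN replicate 4 for PSMB9 A_72_P440071 (12.45, next 13.01) and CR HS replicate 2 for SLA-1 A_72_P124686 (7.267, next 7.89). The highest pigs were LW TN replicate 4 for PSMB10 A_72_P003971 (11.46, next 11.22) and F1 TN replicate 2 for SLA-7 A_72_P223217 (6.346, next 5.826).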

How the results depend on the processing

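Counts of member probes under HS changed most without F1 pigs and with the red cell covariate. The covariate was itself lower in HS than in TN pigs of each breed (means of 10.48 and 11.55 in F1 pigs). It can thus take out part of a difference under HS, whatever its cause. HS minus TN gave 15, but 0 without F1 pigs and 0 with the red cell covariate, and the pathway list 19, but 0 and 0. HS minus TN in F1 gave 28, but 15 under 75th percentile scaling and 0 with the red cell covariate. CR minus LW gave 2, but 1 under 75th percentile scaling, normexp or no filter, 4 with array weights and 9 with the covariate. F1 minus CR gave 1, but 2 with array weights, 3 with slide as a block and 4 with the covariate, F1 minus LW 0, but 1 with the covariate, and the mid-parent contrast 2, but 1 with array weights and 0 with no filter. Leaving out each pig, the counts were 13 to 22 for HS, 15 to 32 for HS in F1 (lowest without F1 TN replicate 4), 15 to 25 for the pathway list, 1 to 4 for CR minus LW (4 without CR TN replicate 1), 1 to 3 for F1 minus CR (3 without F1 HS replicate 2), 0 to 1 for F1 minus LW and 0 to 2 for the mid-parent contrast. The interaction and HS within CR and within LW stayed at 0.

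Differences that turned were never past the threshold. Under HS these were B2M CUST_232_PI427286967 (-0.10 with the covariate, -0.019 without F1 pigs), PSMB8 A_72_P088176 (-0.17 with the covariate), TAP1 O4777 (-0.079 and -0.0040), SLA-8 A_72_P070231 (-0.17), TAPBP (-0.056) and SLA-7 (-0.012, -0.041 under 75th percentile scaling, -0.0017 with slide, -0.015 to 0.035 leaving out each pig). Between CR and LW they were PSMB9 A_72_P440071 (-0.094 with the covariate, -0.029 to 0.086 leaving out each pig), SLA-1 CUST_238_PI427286967 (-0.12, -0.034 under 75th percentile scaling, -0.012 to 0.11), SLA-5 A_72_P441848 (-0.14 to 0.0068), SLA-6 A_72_P237292 (-0.080 with the covariate, -0.042 to 0.071), SLA-7 A_72_P223217 (-0.011 with array weights, -0.0059 to 0.040) and TAPBP O846 (0.022 with array weights, 0.0037 with slide, -0.10 to 0.029). The relation TAP1 with PSMB8 had r = -0.064 without F1 pigs. The causes were not tested. No paired analysis was possible because pig numbers within groups follow the sample order and pair no animals.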
